A study of Mus musculus with 12 samples.

Results

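Myc, its partner Max, the antagonists Mxd1, Mxd4 and Mnt, and the related factor Mlx were followed by gene symbol through 5 deposited comparisons of MC38 tumour cultures. The rule gave 7 names, of which 6 were matched in all 5 tables, out of 16399 genes listed in any table. Mycn is not analysed here. All 6 matched genes had an adjusted p-value in every comparison, so none was lost to the filter on low counts.

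MC38 is a mouse colon carcinoma line, and the labels give the strain as C57BL/6 albino. Tumours had been dissociated, and pieces of 40 to 100 µm were grown in collagen at 2.8 mg/mL in a microfluidic chip. Each of 4 groups held 3 samples, treated for 6 days. IgG cultures received the control antibody 2A3 at 10 µg/mL, and aPD-1 cultures the PD-1 antibody RMP1-14 at 10 µg/mL. The aPD-1+CD8 cultures received RMP1-14 and the CD8 antibody 53-6.7, each at 10 µg/mL, and IFNg cultures interferon-gamma at 100 ng/mL. Antibody is named in 3 of the 4 groups, all but IFNg, so the comparisons with IFNg also differ in antibody present. Loss of CD8 cells under the CD8 antibody is not stated. Nothing says that the samples of a group were separate animals or cultures, so the p-values rest on the spread among these samples alone, perhaps a technical one.

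Summed mean normalized counts ran from 10292941 to 11590748 by table, and the tables hold 0 columns of single samples, so no value per sample can be shown. Counts of epithelial markers were low. Of 10 markers 8 were listed in aPD-1 v IgG, and 0 reached a mean count of 10. Among them were Epcam at 0.152 and Krt8 at 2.49 mean normalized counts (authors' deposited table). Of the 4 tested 1 passed, Krt19, lower at -1.07 ± 0.38 on a mean count of 3.68 (authors' deposited table). T cell markers were as scarce, with 6 of 10 listed in that table and 0 reaching 10. Of 10 macrophage markers 6 reached 10, with Lyz2 at 70.8 as the highest (authors' deposited table). Of 10 fibroblast markers 7 did, among them Col3a1 at 1634 and Pdgfra at 779 (authors' deposited table). In RNA from whole cultures, fewer cells of a type and less RNA per cell cannot be told apart. Counts also differed widely within a list, with Col1a1 at 1606 and Col1a2 at 13.5 (authors' deposited table). The libraries were made by exome capture, and its part in low counts was not tested.

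Myc is a basic helix-loop-helix leucine zipper transcription factor that drives growth and ribosome production and binds DNA as a pair with Max. The sequence it prefers is the E-box CACGTG. The Mxd proteins and Mnt compete for Max at the same sites and recruit Sin3 corepressors with histone deacetylases. Mlx pairs with Mxd1, Mxd4, Mnt and the glucose-sensing Mondo proteins, and so joins this network to metabolism.

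The E-box lies in the promoters of several of these genes themselves, and the stretches that hold it are shown because the genes encode the factors that read it. RefSeq promoters (GRCm38.p6, 250 bases before to 50 after the start) matched 6 of the 7 names, all but Myc. CACGTG, which reads the same on both strands, was found in 4 of these 6, those of Max, Mxd4, Mnt and Mlx, and not in those of Mxd1 and Mycn. It was found in 7.15% of all 32851 promoters in the table. The motif is in capitals, each stretch is 54 bases long and runs 5′ to 3′ on the gene's strand, and Hspd1, a gene that Myc is known to activate, is given beside the members.
Max: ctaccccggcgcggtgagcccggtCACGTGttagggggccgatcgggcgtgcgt
Mxd4: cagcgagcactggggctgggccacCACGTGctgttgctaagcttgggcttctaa
Mnt: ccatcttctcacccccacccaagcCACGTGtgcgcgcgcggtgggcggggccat
Mlx: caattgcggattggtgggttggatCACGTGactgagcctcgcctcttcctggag
Hspd1: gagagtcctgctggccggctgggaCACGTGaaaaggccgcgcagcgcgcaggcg
The stretches lie in GRCm38.p6 at chr12:76962222-76962275 for Max (minus strand), chr5:34187900-34187953 for Mxd4 (minus), chr11:74830777-74830830 for Mnt (plus), chr11:101087226-101087279 for Mlx (plus) and chr1:55088294-55088347 for Hspd1 (minus). The motif began 3 bases before the start of Max, 219 before that of Mxd4, 123 before that of Mnt, 40 before that of Mlx and 80 before that of Hspd1. A match describes the letters and shows no binding.

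Under PD-1 antibody the activating pair Myc and Max fell, and 2 of the 3 antagonists, Mxd4 and Mnt, rose. Myc was 2.92-fold lower in aPD-1 than in IgG cultures, and Max was 1.42-fold lower. Mxd4 was 2.21-fold higher and Mnt 1.44-fold higher. Mxd1 and Mlx did not pass. In all, 4 of the 6 genes passed an adjusted p under 0.05 in the authors' DESeq2 test, 2 in each direction. Of all 12024 genes tested, 18.5% passed, 8.5% higher and 10% lower.

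In the authors' deposited table for aPD-1 against IgG, Myc had a mean normalized count of 1091 over both groups. Its log2 fold change there was -1.55 ± 0.15 (SE, 3 samples a group), and the DESeq2 adjusted p in the authors' deposited table was 8.2e-24. Among all genes tested Myc ranked 65 by p-value, and 10 among those with a negative fold change. A change at least as large in either direction was seen in 1.91% of genes tested. Max, which pairs with Myc and with every antagonist here, was at -0.51 ± 0.15 (adjusted p = 0.0049, DESeq2) in the authors' deposited table, at a mean count of 1737. The 2 genes differ in rank: Max stood at 1319 by p-value, and 24.4% of genes changed by at least as much.

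Mxd4 rose by 1.15 ± 0.36 in log2 (adjusted p = 0.012, DESeq2) in the authors' deposited table for aPD-1 against IgG. Its mean count was 25.3, and its SE is the wide one of a gene with few counts. An annotated gene, Gm42846, overlaps its exons on the opposite strand, and whether counting used strand is not stated in the labels, so the reads of the pair may be mixed. Mnt, the antagonist present in most cell types, rose by 0.52 ± 0.17 (adjusted p = 0.015, DESeq2) in the authors' deposited table, at a mean count of 314. Mxd1, an antagonist linked to differentiation, was at 0.30 ± 0.41 (adjusted p = 0.70, DESeq2) in the authors' deposited table, at a mean count of 10.9. Its 95% interval ran from -0.50 to 1.10, so a doubling could not be told from no change at this count. Mlx was at -0.07 ± 0.17 (adjusted p = 0.85, DESeq2) in the authors' deposited table, with an interval from -0.40 to 0.26. Its exons overlap those of Psmc3ip on the opposite strand.

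**Figure D1:**
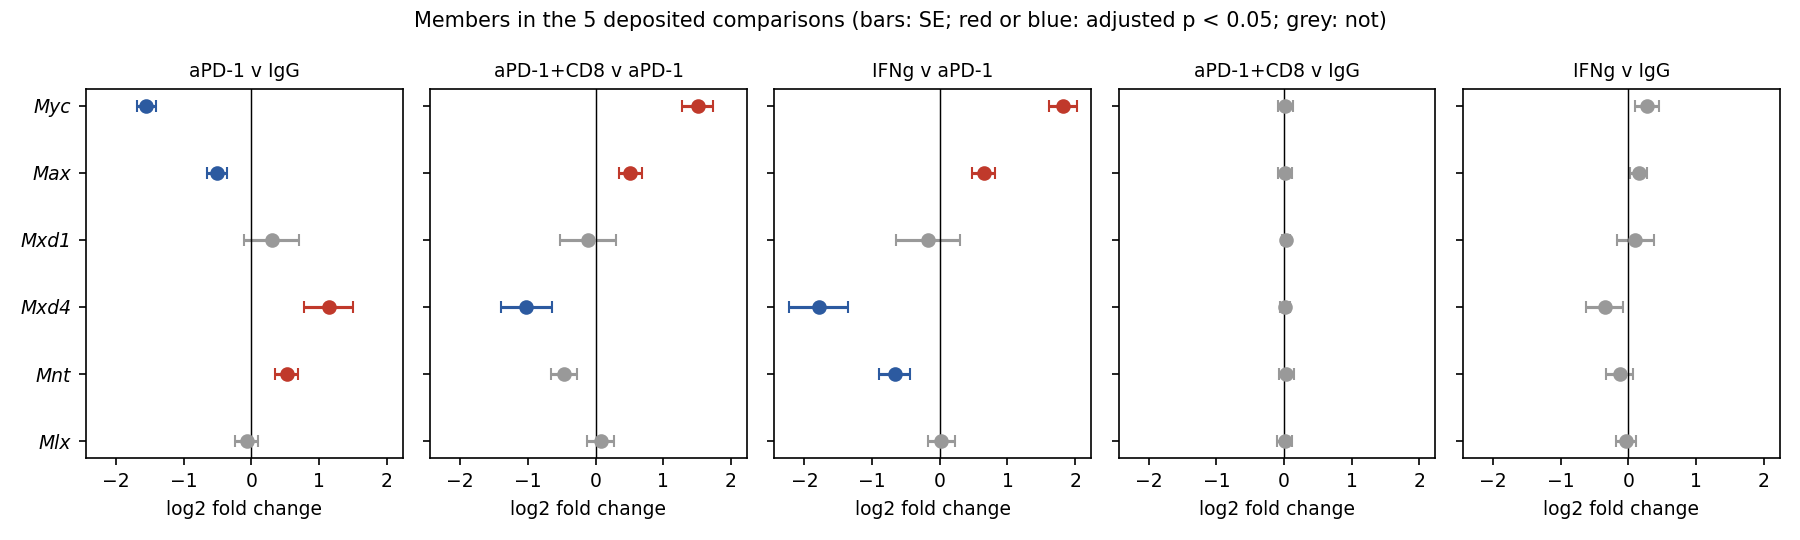
Log2 fold change (x axis, first named group over the second) of the 6 genes in the 5 deposited comparisons; points are the authors' estimates, bars their standard errors, and red or blue marks an adjusted p under 0.05. Myc and Max lie on the opposite side of 0 from Mxd4 and Mnt in the 3 panels that involve aPD-1 against another treatment or IgG, while all 6 points are grey in aPD-1+CD8 v IgG and IFNg v IgG.

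Adding the CD8 antibody to PD-1 antibody went with the opposite pattern. Myc was 2.84-fold higher with the CD8 antibody and Max 1.43-fold higher, while Mxd4 was 2.04-fold lower. Here 3 of the 6 genes passed, 2 higher and 1 lower. The shares over all 11560 genes tested were 14.8% in either direction, 7.82% higher and 6.94% lower.

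Myc was at 1.51 ± 0.22 (adjusted p = 1.4e-09, DESeq2) in the authors' deposited table for aPD-1+CD8 against aPD-1, and ranked 56 by p-value among genes with a positive fold change. Max was at 0.51 ± 0.17 (adjusted p = 0.021, DESeq2) in the authors' deposited table. Mxd4 was at -1.03 ± 0.38 (adjusted p = 0.045, DESeq2), close to the threshold, in the authors' deposited table. Mnt was at -0.47 ± 0.19 in the authors' deposited table and did not pass (adjusted p = 0.086, DESeq2). Mxd1 at -0.11 ± 0.42 and Mlx at 0.07 ± 0.21 did not pass either, per the authors' deposited table. The Mxd4 call was lost without the filter on low counts, where its adjusted p was 0.060 (DESeq2 p-values adjusted anew over all genes that had one).

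Interferon-gamma was set against aPD-1 in the third comparison. Myc was 3.52-fold higher in IFNg cultures, Max 1.57-fold higher, Mxd4 3.46-fold lower and Mnt 1.59-fold lower. Thus 4 of 6 genes passed, 2 in each direction, where 15.5% of 12260 genes did, 8.39% higher and 7.13% lower.

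In the authors' deposited table of IFNg v aPD-1, Myc was at 1.82 ± 0.21 (adjusted p = 1.1e-16, DESeq2). Max was at 0.65 ± 0.17 (adjusted p = 0.0016, DESeq2) in the authors' deposited table. Among the antagonists, Mxd4 was at -1.79 ± 0.44 (adjusted p = 0.00071, DESeq2) and Mnt at -0.67 ± 0.22 (adjusted p = 0.022, DESeq2), both in the authors' deposited table. Mxd1 at -0.17 ± 0.48 and Mlx at 0.02 ± 0.20 did not pass (authors' deposited table). These 3 comparisons share the aPD-1 samples, so their values are set side by side and are not independent of each other. With each Wald score divided by the robust SD of all scores in its table, which is a stricter test, Myc alone among the members passed in each of the 3, and Max, Mxd4 and Mnt did not.

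None of the 6 genes passed in the comparisons without the aPD-1 group. In aPD-1+CD8 v IgG 0 of 15304 genes passed, a share of 0%, and 57 had an unadjusted p under 0.05 in the authors' DESeq2 test. The largest absolute log2 fold change over all genes of that table was 0.353. The 6 genes lay between 0.01 (Mlx) and 0.03 (Mnt and Mxd1) in the authors' deposited table, with Myc at 0.02 ± 0.11. Fold changes of this comparison appear drawn strongly toward 0, so these values do not measure how near aPD-1+CD8 lay to IgG. Their median absolute size over all genes tested was 0.03, against 0.27 in aPD-1 v IgG. The SE of Mxd1 was 0.06, against 0.41 there (authors' deposited tables). In IFNg v IgG, where 4.1% of 11478 genes passed, 2.73% higher and 1.38% lower, Myc was at 0.27 ± 0.18 (adjusted p = 0.63, DESeq2) in the authors' deposited table. Max was at 0.15 ± 0.13, Mxd4 at -0.35 ± 0.28 and Mnt at -0.13 ± 0.20 there (authors' deposited table). The smallest unadjusted p of a member in that table was 0.127, that of Myc. The 95% interval for Myc ran from -0.08 to 0.63.

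Levels in each group were derived within each table from its mean count and its fold change, which gives 3 values for IgG and for aPD-1 and 2 for each of the other groups. These values come from the same samples, and their range shows only how far the tables differ from each other. The deposited fold changes appear drawn in toward no change, more strongly in tables with few changed genes. Implied levels, their percentages of IgG and the group order inherit this. Gaps between groups may thus be understated, most of all in aPD-1+CD8 v IgG. Implied levels of Myc were 505 to 556 normalized counts in aPD-1, 1479 to 1626 in IgG, 1436 to 1501 in aPD-1+CD8 and 1890 to 1943 in IFNg. Thus aPD-1 was the lowest group by far, at 33.9% of the IgG mean. By mean implied level the other 3 followed in the order aPD-1+CD8, IgG and IFNg. In aPD-1+CD8 v IgG itself, however, Myc was slightly higher in aPD-1+CD8, at 1501 against 1479. The gap rests on that table's fold change, so its size does not measure how near the groups lay. Neither aPD-1+CD8 nor IFNg differed from IgG beyond the test's threshold, and aPD-1+CD8 was not set against IFNg in any table.

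Max followed the same order by mean, though in aPD-1+CD8 v IgG it too was slightly higher in aPD-1+CD8, at 1856 against 1836. Its implied levels were 1259 to 1436 in aPD-1, 1796 to 1856 in aPD-1+CD8, 1836 to 2039 in IgG and 2142 to 2206 in IFNg. For Mxd4 the order was turned, from 8.70 to 9.47 in IFNg over 11.1 to 15.7 in IgG and 12.4 to 14.9 in aPD-1+CD8 to 30.4 to 34.8 in aPD-1. Its aPD-1 mean was 251% of the IgG mean. Mnt had implied levels of 220 to 224 in IFNg, 234 to 236 in aPD-1+CD8, 231 to 258 in IgG and 323 to 370 in aPD-1. For both antagonists the aPD-1 range lay above those of all other groups, which for Max and Myc lay above aPD-1.

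Mxd1 had implied levels of 9.01 to 9.81 in IgG, 9.20 to 10.3 in aPD-1+CD8, 9.86 to 10.6 in IFNg and 11.1 to 12.1 in aPD-1. Mlx, with 437 to 499 in aPD-1, 461 to 473 in aPD-1+CD8, 480 to 494 in IFNg and 470 to 523 in IgG, had ranges that overlapped in every pairing of aPD-1 with another group. In 5 of the 6 genes, all but Mlx, aPD-1 was thus the lowest or the highest of the 4 groups by mean implied level. The 5 include Mxd1, which passed in no comparison. How often this holds over all genes was not worked out, so the count is description only. No test is attached to this order, and counts are not compared between genes because they are not scaled to gene length.

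**Figure D2:**
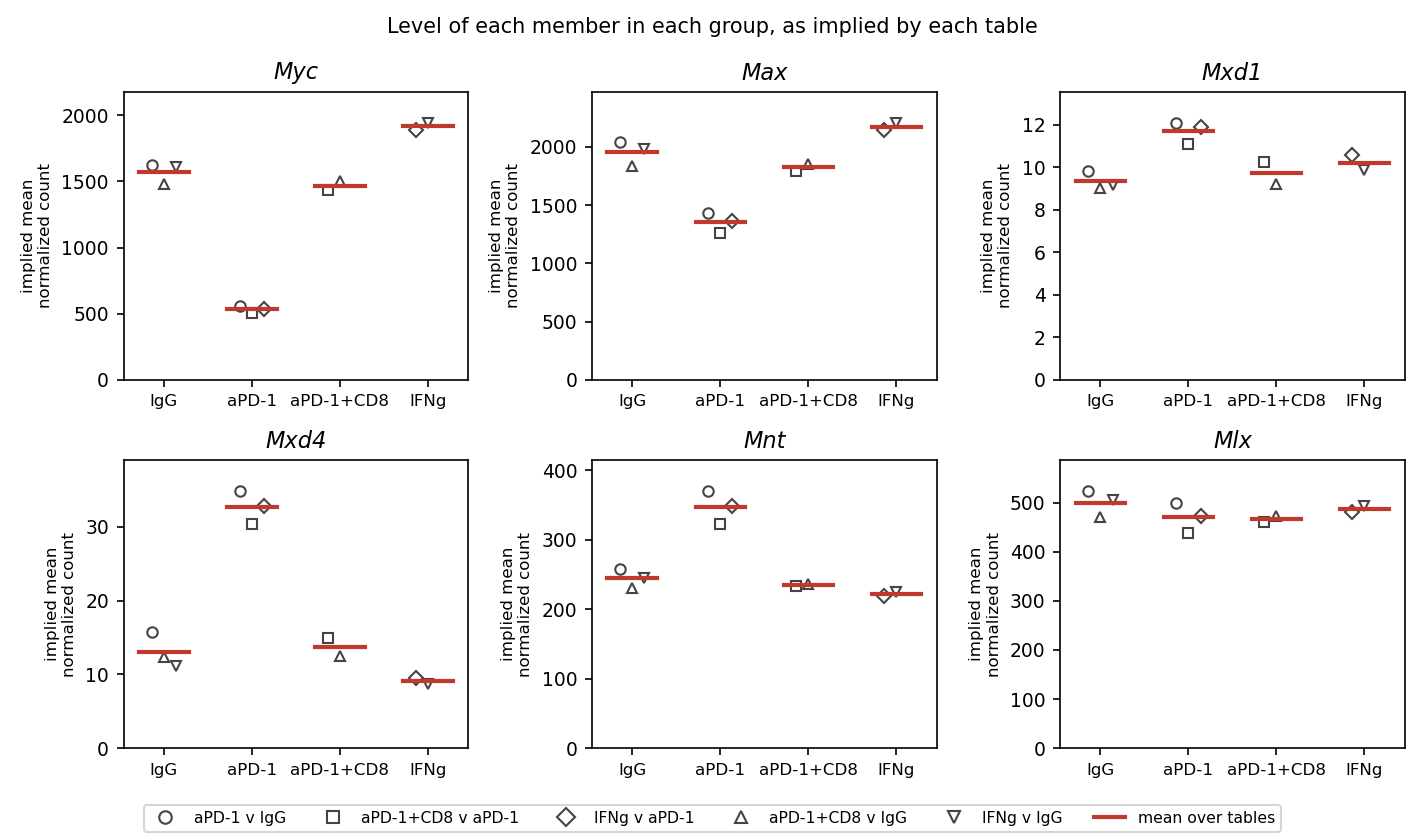
Implied mean normalized count (y axis, linear and from 0) of each gene in the 4 groups; each open symbol is the value from one table, and the red line is the mean over tables. Myc stands at 505 to 556 in aPD-1 and at 1436 or more in every other group, while Mxd4 stands at 30.4 to 34.8 in aPD-1 and at 15.7 or less elsewhere. The levels rest on fold changes that appear drawn in toward no change, by amounts that differ between tables.

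Among other factors of the network, the share that passed was near that of all genes. Of 11 further factors that bind E-boxes or pair with these proteins, 8 were tested in aPD-1 v IgG, and 1 fell and 0 rose, or 12.5% lower against 10% of all genes tested. That gene was Tfap4, a factor that Myc is known to induce, at -0.77 ± 0.18 (adjusted p = 0.00034, DESeq2) in the authors' deposited table. Tfap4 was at 0.70 ± 0.22 (adjusted p = 0.014, DESeq2) in aPD-1+CD8 v aPD-1 and did not pass in IFNg v aPD-1, at 0.53 ± 0.24 (adjusted p = 0.14, DESeq2), per the authors' deposited tables. The remaining antagonists of the Mxd and Mnt kind missed the threshold in aPD-1 v IgG: Mxi1 was at 0.08 ± 0.18, Mxd3 at 0.22 ± 0.38 and Mga at -0.16 ± 0.15 in the authors' deposited table. Mlxip, the Mondo partner of Mlx, was at -0.03 ± 0.15 in the authors' deposited table. Its best known target Txnip, an inhibitor of glucose uptake, was at 0.25 ± 0.25 there (authors' deposited table). The Myc relative Mycl had a mean count of 0.127 and was not tested in aPD-1 v IgG (authors' deposited table).

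Cofactors and turnover genes also passed at shares near those of all genes in aPD-1 v IgG. Of 11 coactivators of Myc, 1 fell with aPD-1, or 9.09% against 10% of all genes tested: Ruvbl2, an ATPase of chromatin remodelling complexes, at -0.47 ± 0.16 (adjusted p = 0.028, DESeq2) in the authors' deposited table. Ruvbl2 was higher against aPD-1 with the CD8 antibody, at 0.56 ± 0.18, and with IFNg, at 0.66 ± 0.19, in the authors' deposited tables, and the acetyltransferase Kat2a joined it in IFNg v aPD-1 at 0.49 ± 0.16. The coactivators higher were 9.09% with the CD8 antibody against 7.82% of all genes tested, and 18.2% with IFNg against 8.39%. Among 11 Sin3 and histone deacetylase corepressors 1 fell with aPD-1, or 9.09% lower against the same 10%. It was Sap30, a subunit of the Sin3 complex, which fell by 0.56 ± 0.18 (adjusted p = 0.017, DESeq2, authors' deposited table). Among 15 genes that set the turnover of Myc protein 2 fell with aPD-1 and 0 rose, or 13.3% lower against the same 10%. They were Usp36, a nucleolar deubiquitinase that stabilises Myc, at -0.54 ± 0.16, and Set, an inhibitor of the phosphatase PP2A, at -0.59 ± 0.19, both in the authors' deposited table. In aPD-1+CD8 v aPD-1 3 of the 15 turnover genes were higher and 0 lower, or 20.0% higher against 7.82% of all genes tested.

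Of 69 genes that Myc is known to activate, all tested in aPD-1 v IgG, 32 fell and 1 rose, or 46.4% and 1.45%, against 10% and 8.5% of all genes tested. The median log2 change of the list was -0.51, against 0.01 over all genes tested. Those of smallest adjusted p, by the authors' deposited table, serve the nucleolus and growth: the growth regulator Pa2g4 at -0.97 ± 0.13 (adjusted p = 2.3e-11, DESeq2), nucleolin, Ncl, at -0.82 ± 0.12 and the snoRNP protein Nop56 at -0.95 ± 0.14. The exception was Odc1, which encodes ornithine decarboxylase of polyamine synthesis, at 1.23 ± 0.20 (adjusted p = 1.1e-08, DESeq2) in the authors' deposited table.

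With the CD8 antibody, 28 of the 69 activated genes were higher than in aPD-1 and 1 was lower, or 40.6% and 1.45%. Of all genes tested 7.82% were higher and 6.94% lower. The list median was 0.54 against a median of 0.00 over all genes tested. The mitochondrial chaperone Hspd1 was at 1.05 ± 0.17, Pa2g4 at 0.97 ± 0.16 and Nop56 at 0.95 ± 0.17, in the authors' deposited table for aPD-1+CD8 against aPD-1. Odc1 was again the exception, at -1.15 ± 0.21 (adjusted p = 1.4e-06, DESeq2; authors' deposited table). In IFNg v aPD-1 30 were higher and 1 lower, or 43.5% and 1.45%, against 8.39% and 7.13% of all genes tested. The list median there was 0.57. Rrp9, which acts in ribosomal RNA processing, was at 1.40 ± 0.20, Hspd1 at 1.06 ± 0.17 and the nucleolar protein Tcof1 at 1.26 ± 0.21 in the authors' deposited table, and Odc1 at -1.11 ± 0.24 there. In IFNg v IgG 1 of 69 rose, or 1.45% against 2.73% of all genes tested, and 0 fell. It was the transferrin receptor Tfrc at 0.47 ± 0.15 (adjusted p = 0.039, DESeq2, authors' deposited table). In aPD-1+CD8 v IgG 0 passed.

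With each Wald score divided by the robust SD of its table, 5 of the 69 passed lower in aPD-1 v IgG, 3 higher in aPD-1+CD8 v aPD-1 and 5 higher in IFNg v aPD-1. Most of the changes were small: with a log2 change of at least 1 also asked for, 3 of the 69 were lower in aPD-1 v IgG, 6 higher in aPD-1+CD8 v aPD-1 and 6 higher in IFNg v aPD-1. Part of the cell cycle list and, in the first 2 of these comparisons, part of the ribosomal protein list moved alongside. Cell cycle genes that passed included the replication genes Mcm2 at -1.01 ± 0.14 and Cdt1 at -1.22 ± 0.21 in aPD-1 v IgG. Mki67 at -0.03 ± 0.17, Cdk1 at -0.03 ± 0.19, Ccnb1 at 0.10 ± 0.23 and Cdc20 at 0.38 ± 0.21 did not (authors' deposited table). They passed in neither of the other comparisons with aPD-1. In aPD-1 v IgG 13 of 25 cell cycle genes and 10 of 24 tested ribosomal protein genes fell and 0 of either rose. These are 52.0% and 41.7% lower, against 10% of all genes tested, with medians of -0.51 and -0.32. In aPD-1+CD8 v aPD-1 14 of 25 and 9 of 24 were higher and 0 of either lower, against 7.82% of all genes higher. In IFNg v aPD-1 8 of 25 cell cycle genes, or 32.0%, were higher and 0 lower, while 2 of 24 ribosomal protein genes were higher, or 8.33%, a share near the 8.39% of all genes. Part of the fibroblast markers moved the other way, with 4 of 8 tested higher in aPD-1 v IgG, 3 of 8 lower in aPD-1+CD8 v aPD-1 and 5 of 8 lower in IFNg v aPD-1. The shares over all genes tested were 8.5%, 6.94% and 7.13% in the same order. Pdgfrb had the opposite sign in each, at -0.28 ± 0.21, 0.22 ± 0.38 and 0.16 ± 0.29, and did not pass (authors' deposited tables). Macrophage markers gave no common direction. In aPD-1 v IgG only Cd14 passed, higher, while 7 of the 10 tested had a negative change and the list median was -0.34. In aPD-1+CD8 v aPD-1 0 passed. Mrc1 alone passed, lower, in both IFNg comparisons. Of the 9 tested, 5 had a positive change in IFNg v aPD-1 and 2 in IFNg v IgG. The 1 endothelial marker of 5 that was tested there, Cdh5, was at 1.49 ± 0.28 (adjusted p = 2.4e-06, DESeq2) in aPD-1 v IgG and at -1.42 ± 0.31 (adjusted p = 0.00012, DESeq2) in aPD-1+CD8 v aPD-1, per the authors' deposited tables. Cdh5 did not pass in IFNg v aPD-1, at -0.68 ± 0.36 in the authors' deposited table. Of 10 T cell markers 5 were listed in IFNg v aPD-1, 4 of them at mean counts under 1, and only Lck was tested. Lck was higher there, at 1.37 ± 0.51 (adjusted p = 0.044, DESeq2) on a mean count of 6.15 in the authors' deposited table. It did not pass in IFNg v IgG, at 0.65 ± 0.25 (authors' deposited table). The part of proliferation, RNA content or cell makeup in the Myc values was not tested.

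Genes that Myc is known to repress gave no common direction. Of 10 such genes 9 were tested in aPD-1 v IgG, where 2 rose and 1 fell. These are 22.2% and 11.1%, against 8.5% and 10% of all genes tested. The matrix glycoprotein Thbs1 rose by 2.55 ± 0.22 (adjusted p = 9.5e-28, DESeq2) and the stress-induced Ndrg1 by 0.92 ± 0.15 in the authors' deposited table, whereas the growth arrest gene Gadd45a fell by 1.23 ± 0.17 (authors' deposited table). Each of the 3 passed in the opposite direction in aPD-1+CD8 v aPD-1, where Thbs1 was at -3.19 ± 0.25, Ndrg1 at -0.62 ± 0.19 and Gadd45a at 1.47 ± 0.19 in the authors' deposited table. They also did so in IFNg v aPD-1, at -2.36 ± 0.26, -1.39 ± 0.24 and 0.82 ± 0.22 in the same order (authors' deposited table). The inhibitors of cyclin-dependent kinases that Myc represses through Zbtb17 (Miz-1) missed the threshold in aPD-1 v IgG: Cdkn1a was at 0.31 ± 0.30, Cdkn1b at 0.11 ± 0.18 and Cdkn2b at 0.11 ± 0.37 in the authors' deposited table.

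**Figure D3:**
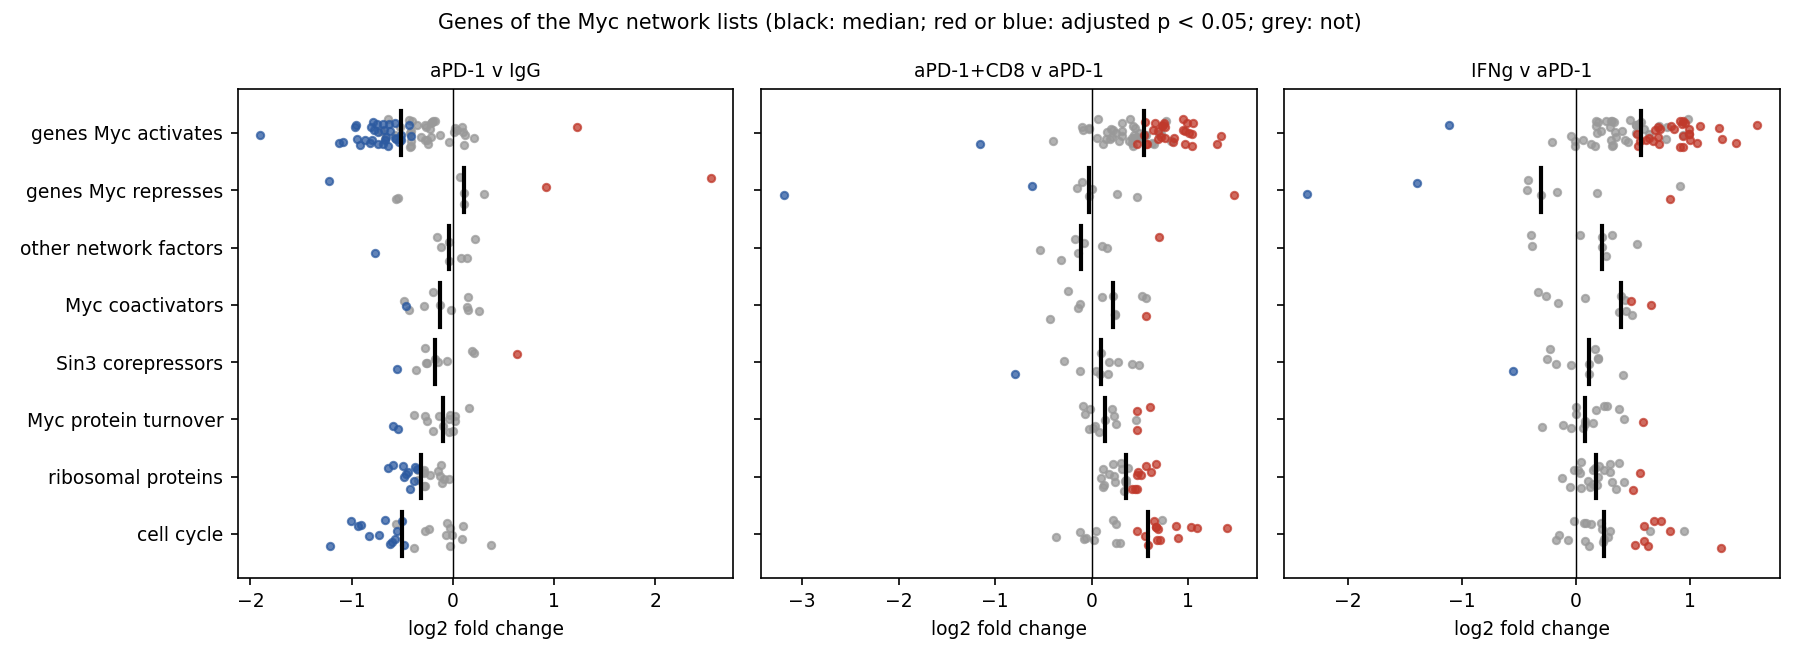
Log2 fold change (x axis) of the tested genes of 8 lists in the 3 comparisons that involve aPD-1; each point is a gene (vertical scatter has no meaning), black lines are list medians, and red or blue marks an adjusted p under 0.05. Genes that Myc activates have medians of -0.51, 0.54 and 0.57 from left to right, with Odc1 as the single coloured point on the other side in each panel.

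Promoters with the E-box were set against those without. In aPD-1 v IgG, 147 of 1059 tested genes with CACGTG in a RefSeq promoter fell, or 13.9%, and 62 rose, or 5.85%. Of 7906 genes without it 9.70% fell and 8.46% rose. With the CD8 antibody, against aPD-1 alone, 11.3% of 1040 genes with the motif were higher and 4.13% lower, against 7.62% and 7.08% of 7615 without it. In IFNg v aPD-1 the shares were 10.5% and 5.43% of 1068 genes, against 8.19% and 7.12% of 8060. These shares are a description with no test, and many factors other than the Myc network, such as Usf1 and Usf2, bind the same letters.

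**Figure D4:**
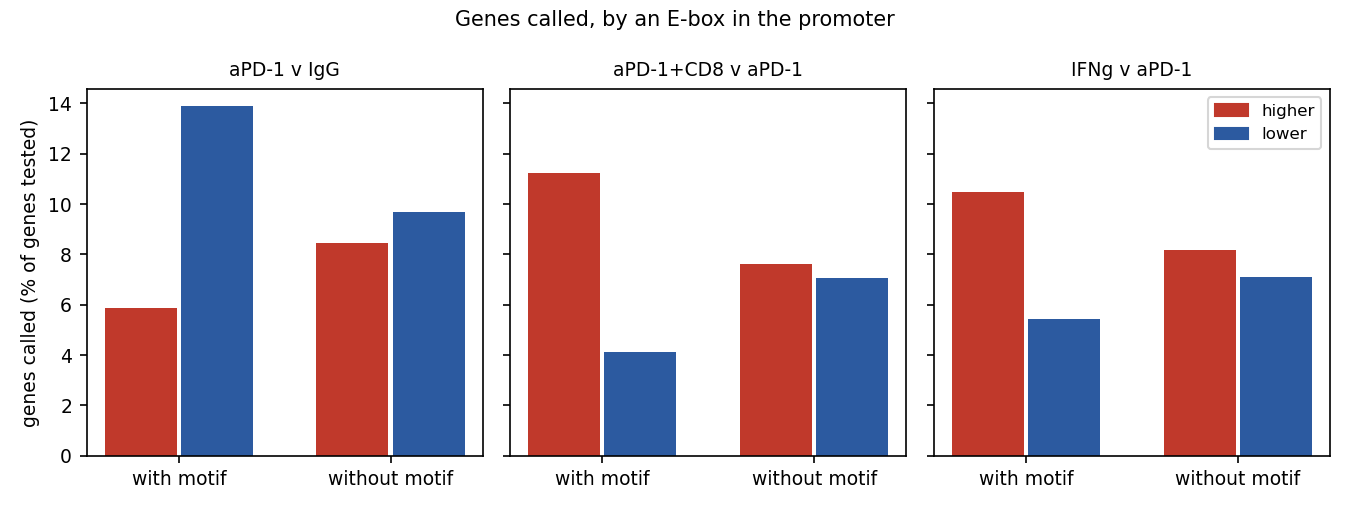
Share of tested genes (y axis, percent, from 0) that were higher (red) or lower (blue) at an adjusted p under 0.05, for genes with and without CACGTG in a RefSeq promoter of 300 bases. With the motif, 13.9% fell and 5.85% rose in aPD-1 v IgG; without it the bars stand at 9.70% and 8.46%.

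Over all 5 comparisons together, the genes whose fold changes lay nearest to those of Myc (Euclidean distance, 5705 genes, each at 100 or more mean counts in all tables) were Wwc1, Zfp365, Camk2d, Psat1 and Slc7a1. Wwc1, a scaffold protein of the Hippo pathway, lay at a distance of 0.134, with -1.59 ± 0.15 in aPD-1 v IgG, 1.55 ± 0.18 in aPD-1+CD8 v aPD-1 and 1.76 ± 0.18 in IFNg v aPD-1 (authors' deposited tables). Zfp365 followed at 0.192 and the calcium-dependent kinase Camk2d at 0.215. Psat1, an enzyme of serine synthesis, lay at 0.307 and Slc7a1, a transporter of cationic amino acids, at 0.314. The 5 comparisons rest on 4 groups, so the likeness is over few independent values.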

How the data were processed

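Exome-capture libraries from 250 ng RNA each had been made for 12 samples, 3 in each of 4 groups, per the labels' protocols. The authors deposited 5 tables of comparisons, made with DESeq2 on the mm9 build per the submitters' processing notes; the sources used here do not give its version, the aligner, counter or annotation, or the use of strand. The deposited columns are, per the file headers, the mean normalized count (a signal over both groups, scaled by the authors), the log2 fold change and its error, the Wald score, and the p-value before and after adjustment. The deposited fold changes appear drawn toward 0, more strongly in tables with few changed genes, so sizes are not on 1 scale between tables.

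A gene passed at an adjusted p under 0.05 in the authors' DESeq2 test. Levels were to be solved from the mean counts of all tables together. The median log2 ratio of levels solved so was -0.42 for aPD-1+CD8 v IgG, where the deposited median was -0.00, over 5704 genes, so levels within each table, chosen after seeing the data, were used instead. Of 228 genes in 15 other lists 220 matched, 2 by an older symbol. Named list genes are up to 3 per direction and comparison by adjusted p; any others were picked with their values in view. The members and lists were chosen with earlier results of these data known. Promoters were matched by symbol to RefSeq (GRCm38.p6); no coordinates of the authors' build were used. Scripts ran in Python 3.11.15 with pandas 2.3.3 and scipy 1.17.1 and were tested on simulated data. The result of 1 list gene is not reported here.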

Additional observations from a re-analysis of the deposited data

How the results depend on the processing

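Myc passed in all 3 comparisons that involve aPD-1 under all 6 alternatives to the test, with a largest adjusted p of 0.0056 (DESeq2 score, rescaled). No member changed direction in a comparison where it passed. With an adjusted p under 0.01, 2 members passed in aPD-1 v IgG and 1 in aPD-1+CD8 v aPD-1, where 1099 genes did. With a log2 change of at least 1 also required, 707 genes passed in aPD-1 against IgG and 656 in aPD-1+CD8 against aPD-1. In IFNg against aPD-1 860 genes passed, and in IFNg against IgG 190. In each of the first 3 of these comparisons 2 members passed, Myc and Mxd4, with 3, 6 and 6 activated genes by order. With the Wald score divided by its robust SD (1.86, 1.70, 1.74 and 1.16 in the same order, and 0.627 in aPD-1+CD8 v IgG), 381, 312, 412, 287 and 5 genes passed, with 1 member, Myc, in each of the first 3 and with 5, 3 and 5 activated genes; the cause was not tested. The count of members with aPD-1 as an extreme group stayed at 5 when levels were solved over all tables or with 1 table left out. Without the table of aPD-1 v IgG no unique solution exists. Solved levels were set aside above for their misfit and reuse the same mean counts, so the unchanged count is no independent check. No paired analysis was possible because the tables hold no single samples, and leaving out a library was not possible for the same reason. Low counts limit Mxd1 and Mxd4.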

Other observations

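Genes that Myc activates were also split by the E-box. RefSeq promoters matched 61 of the 69 genes, and 18 of them, or 29.5%, held CACGTG, against 8.09% of all 27025 genes with a promoter in the table. In aPD-1 v IgG 7 of the 18 genes with the motif and 19 of the 43 without it fell, with median log2 changes of -0.47 and -0.43. In aPD-1+CD8 v aPD-1 7 of 18 and 15 of 43 were higher, with medians of 0.44 and 0.50. No test of the difference between these shares was made.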
